A study of Mus musculus with 18 samples.

Results

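The 9 genes described here encode transcription factors that set up and hold the hepatocyte state: Hnf4a, Foxa1, Foxa2, Foxa3, Cebpa, Cebpb, Cebpd, Hhex and Prox1. They were chosen by symbol, and they are 9 of the 17180 genes listed in the tables of the series. Of the 9, 8 were listed in all 18 libraries, and Cebpd was unlisted in a single one. Partial hepatectomy removes most of the liver, and the lobes left behind grow back; poly(A) RNA of such livers, from C57BL/6 mice, was sequenced 0.5, 2, 4, 24, 48, 72, 120 and 168 h later, beside a sham group. Each of the 9 groups had 2 libraries, each a pool of RNA from 3 mice, so n = 2 pools per group. Tests that leave out the 2 libraries with incomplete tables have n = 1 in sham and at 0.5 h. The mice of all groups were C57BL/6, no allele or drug is named in the labels, and the sex of the mice and the time at which sham livers were taken are not given in the labels. The same 2 sham libraries served as the reference at all 8 times.

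HNF4A is a nuclear receptor that holds the mature hepatocyte programme, and the FOXA proteins are pioneer factors that open liver enhancers early in development and keep them open later. C/EBPα drives metabolic genes and is known as a brake on hepatocyte division, while C/EBPβ and C/EBPδ are induced by cytokines and drive the acute phase response. HHEX and PROX1 are homeodomain proteins needed for the liver bud to form and for hepatoblasts to spread, and both are also made outside hepatocytes, in endothelial cells.

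The sequence before the start of 3 of the genes is shown, since Cebpa and Cebpb moved in opposite directions after the operation and Hhex moved furthest. Each run is the 250 bases before the RefSeq gene start on the gene's own strand, from 5′ to 3′ in GRCm38.p6. Capitals mark matches to the motifs searched. Cebpa lies on the plus strand at chr7:35119043-35119292, Cebpb on the plus strand at chr2:167688665-167688914 and Hhex on the plus strand at chr19:37434591-37434840.
Cebpa: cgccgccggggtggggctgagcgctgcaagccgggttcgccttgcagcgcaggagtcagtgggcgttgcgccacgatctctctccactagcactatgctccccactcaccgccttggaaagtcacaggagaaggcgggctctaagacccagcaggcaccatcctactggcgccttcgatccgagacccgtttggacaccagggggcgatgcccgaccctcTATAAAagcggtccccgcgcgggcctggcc
Cebpb: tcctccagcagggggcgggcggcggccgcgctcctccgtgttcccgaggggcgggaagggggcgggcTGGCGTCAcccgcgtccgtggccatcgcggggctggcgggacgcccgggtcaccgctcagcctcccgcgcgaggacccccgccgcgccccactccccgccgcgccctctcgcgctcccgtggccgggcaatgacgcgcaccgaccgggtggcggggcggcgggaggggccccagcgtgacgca
Hhex: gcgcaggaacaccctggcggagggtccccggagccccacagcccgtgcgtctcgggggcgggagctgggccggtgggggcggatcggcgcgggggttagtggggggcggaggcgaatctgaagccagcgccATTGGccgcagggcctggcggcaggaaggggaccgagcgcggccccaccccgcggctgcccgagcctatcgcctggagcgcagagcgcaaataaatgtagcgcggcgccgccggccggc

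The motifs were searched on both strands in windows running from 250 bases before to 50 bases after the start. They were TTGCNNAA for C/EBP, TGACGNNA for cyclic AMP response elements, TGTTTNC for FOXA, CAAAGTCCA for HNF4A, TTCNNNGAA for STAT, the TATA box TATAAA and the CCAAT box CCAAT. In the Cebpa window the TATA box began 30 bases before the start. In the Cebpb window the cyclic AMP motif matched on the opposite strand, as TGGCGTCA, from 183 bases before the start, and TATAAA began at base 22 after it. The Hhex window held a CCAAT box on the opposite strand, as ATTGG, from 119 bases before the start. Of all 32851 RefSeq windows of this length, 6.61% held the cyclic AMP motif, 13.6% the TATA box and 37.4% the CCAAT box. The genes themselves span chr7:35119293-35121928 (Cebpa), chr2:167688915-167690432 (Cebpb) and chr19:37434841-37440731 (Hhex) in mm10. None of the 3 windows held the C/EBP motif, which 10.8% of all windows held, or the STAT motif, which 8.30% held. The FOXA motif, in 20.5% of windows, and the HNF4A motif, in 0.475%, were also not among the letters of these 3 windows. A match is a description of letters and no evidence of a bound site.

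Totals ran from 7.78 M to 9.16 M uniquely mapped reads per library. The tables of 16 libraries were complete and listed 14050 to 14741 genes. That of sham replicate 2 ended at 52 reads and that of 0.5 h replicate 1 at 157 reads, so a gene unlisted there is unknown up to 6.52 and 19.0 CPM in turn, and Cebpd was unlisted in 0.5 h replicate 1. Levels are CPM, read counts scaled to library size with TMM factors, unless RPKM is named, which also divides by gene length. Hepatocyte markers were abundant in these livers: 10 such genes summed to 109445 to 197159 CPM over the complete libraries. Each change is a log2 fold change with its SE (edgeR, quasi-likelihood), called at a Benjamini-Hochberg adjusted p below 0.05 over all genes of a fit. The 8 genes listed everywhere were tested in 18 libraries over 4906 genes, and Cebpd in the 16 complete libraries over 12199 genes, where sham and 0.5 h have 1 library each. Since pools and not single mice were sequenced, p-values reflect how far pools differ, with 1 spread for all groups. In whole liver, fewer cells of a type and less RNA per cell cannot be told apart. Levels are relative to the other RNA of the library, and on read totals alone the median of the 4906 genes would lie 0.37 log2 lower at 4 h than in sham.

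The factors did not move as a block. Cebpb and Cebpd rose within hours, Cebpa, Hhex, Foxa1 and Foxa2 fell, and Hnf4a kept the highest level of the set in every group. Over the 9 groups, 7 of the 9 genes differed by edgeR's test. Over the 4906 genes of the 18-library fit the share that differed was 68.6%, and over the 12199 genes of the 16-library fit, from which Cebpd comes, it was 42.8%, so a difference somewhere in the course was common. The exceptions were Foxa3 (edgeR adjusted p = 0.0604) and Prox1 (adjusted p = 0.0829), both of which DESeq2 called (adjusted p = 0.0111 and 0.0122). The ratio of the highest to the lowest group mean was 19.9 for Hhex, 8.0 for Cebpd, 4.64 for Foxa1 and 3.29 for Cebpb. It was 2.04 for Cebpa, 1.88 for Prox1, 1.86 for Foxa2, 1.49 for Foxa3 and 1.45 for Hnf4a.

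**Figure D1:**
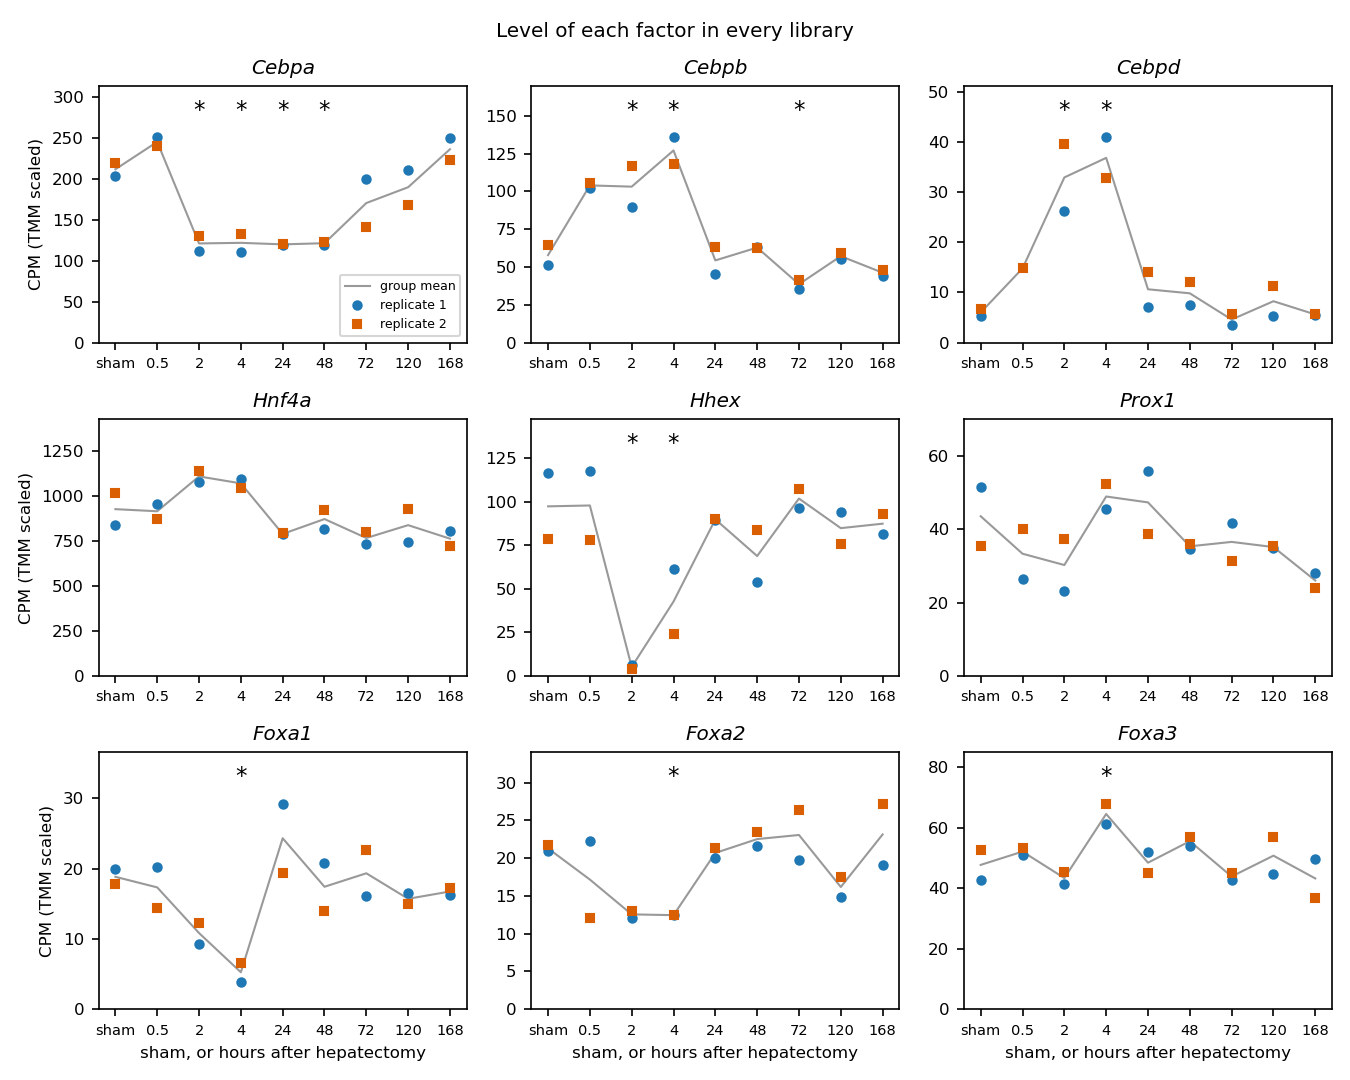
CPM of each factor (vertical axes, from 0) in every library of the sham group and of the 8 times after hepatectomy (horizontal axes); circles are replicate 1, squares replicate 2, grey lines join group means, and stars mark times called against sham. Cebpb and Cebpd are higher than in sham at 2 and 4 h, Hhex drops to 6.13 and 4.11 CPM at 2 h, and Cebpa lies between 111 and 133 CPM in all libraries from 2 to 48 h.

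The early times held most of the calls. At 0.5 h none of the 9 was called by edgeR, where 0.204% of the genes of the 18-library fit and 0.0492% of those of the 16-library fit were. At an unadjusted p below 0.05, Cebpb and Cebpd passed, and DESeq2 called Cebpb (adjusted p = 0.000348). At 2 h, 4 were called, against 8.76% of all genes in the 18-library fit and 2.65% in the 16-library fit. Cebpb and Cebpd were higher and Cebpa and Hhex lower. At 4 h, 7 were called, against 35.7% and 15.5% in the same fits, with Cebpb, Cebpd and Foxa3 higher and Cebpa, Hhex, Foxa1 and Foxa2 lower. At 24 and 48 h Cebpa alone was called, lower at both, where 17.3% and 36.8% of the 4906 genes were called (2.93% and 14.9% in the 16-library fit). Cebpb alone was called at 72 h, lower, with 12.6% and 3.82% of genes called. At 120 h, with 0.775% and 0.107% called, and at 168 h, with 5.75% and 0.082% called, none of the 9 passed edgeR's test. At 168 h DESeq2 called Prox1, with a log2 fold change of -0.74 (adjusted p = 0.0343). At an unadjusted p below 0.05, none of the 9 passed at 120 h and Prox1 alone passed at 168 h.

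**Figure D2:**
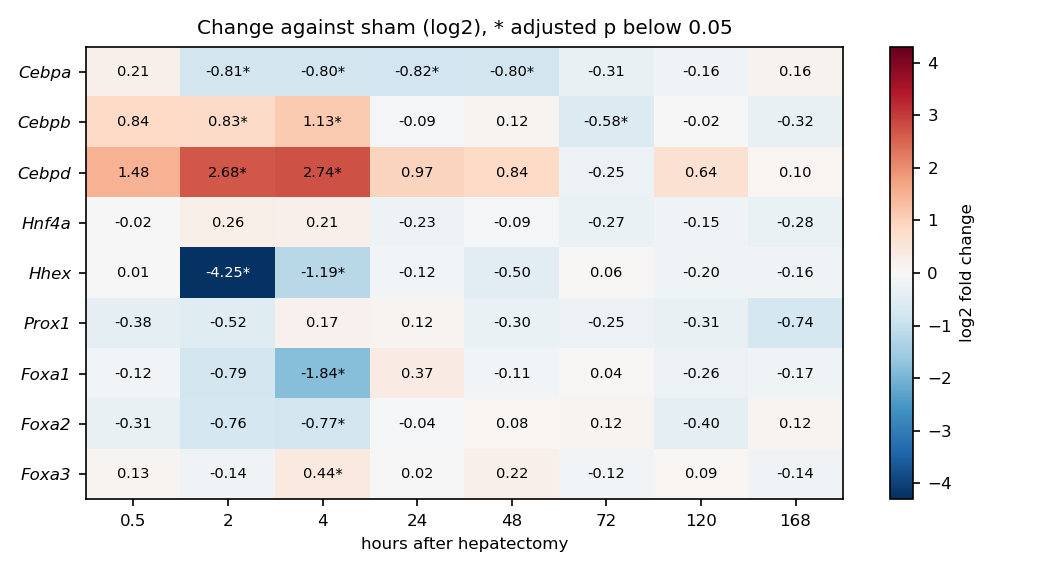
Log2 fold change of each factor (rows) at each time after hepatectomy (columns) against sham, with red for higher and blue for lower; stars mark an adjusted p below 0.05 from edgeR's quasi-likelihood test. Calls crowd at 2 and 4 h, and the deepest fall is Hhex at 2 h (-4.25). With TMM factors Cebpa stays between -0.82 and -0.80 from 2 to 48 h.

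Per unit of length, Hnf4a was the most abundant of the 9 in each group. Its RPKM ran from 169 to 234 over the 18 libraries. In sham the mean RPKM was 214 for Hnf4a, 80.7 for Cebpa, 55.8 for Hhex, 38.8 for Cebpb and 23.6 for Foxa3. Prox1 (10.7) and Foxa2 (10.1) overlapped between libraries, and Foxa1 (5.99) and Cebpd (2.69) came last. At 2 h the RPKM order had Cebpb (61.9) above Cebpa (41.3), and Foxa1 (3.07) and Hhex (2.62), which overlapped, stood below the others. At 4 h Cebpb (65.6) was again above Cebpa (35.8), and Foxa1 (1.29) stood last. Foxa3 and Hhex, and Hhex and Cebpd, overlapped at 4 h in their RPKM, so those neighbours have no order there.

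Hnf4a (chr2:163506811-163572907, plus strand), the nuclear receptor of the set, had the smallest ratio of highest to lowest group mean, although the coefficient of variation of its group means (14.1%) was close to that of Foxa3 (13.8%). Its CPM were 838 and 1016 in sham, 957 and 873 at 0.5 h, 1077 and 1142 at 2 h, 1094 and 1046 at 4 h, and 787 and 792 at 24 h. They were 819 and 925 at 48 h, 735 and 799 at 72 h, 746 and 931 at 120 h, and 806 and 720 at 168 h. Both libraries at 2 h and at 4 h lay above both sham libraries, and both at 24, 72 and 168 h lay below them. On read totals alone the 4 h change is -0.17 and not 0.21, so its direction depends on the scaling. No time was called against sham: the log2 fold change ran from -0.28 ± 0.14 at 168 h (adjusted p = 0.199) to 0.26 ± 0.14 at 2 h (adjusted p = 0.338). The step to 24 h from 4 h was called, a fall of -0.44 ± 0.14 (adjusted p = 0.0262), where 34.5% of genes were called, and 6 of the 9 members passed at that step. The fall is not seen on read totals alone, where the step is 0.05 (adjusted p = 0.746), and the median of all genes moved by 0.48 log2 between those times on that scale. It is also lost without any 1 of the 4 libraries of those times (adjusted p from 0.0504 to 0.0871).

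Cebpa, the metabolic C/EBP factor, fell at 2 h and stayed low through 48 h. Its CPM were 203 and 220 in sham, 250 and 239 at 0.5 h, 112 and 130 at 2 h, and 111 and 133 at 4 h. They were 120 and 120 at 24 h, 120 and 123 at 48 h, 200 and 141 at 72 h, 211 and 168 at 120 h, and 249 and 222 at 168 h. All 8 libraries from 2 to 48 h lay below both sham libraries, with little spread, and at 168 h both lay above them. The fall was 1.75-fold at 2 h, with a log2 fold change of -0.81 ± 0.16 (adjusted p = 0.00745), and it was -0.80 ± 0.16 at 4 h (adjusted p = 0.00197). It was -0.82 ± 0.16 at 24 h (adjusted p = 0.0048) and -0.80 ± 0.16 at 48 h (adjusted p = 0.0026). On read totals alone edgeR's step to 24 h from 4 h is 0.47 (adjusted p = 0.0187) and not -0.02, so the flat course depends on the scaling. The step to 2 h from 0.5 h was -1.02 ± 0.16 (adjusted p = 0.00147), where 13.3% of genes in the 18-library fit were called (3.21% in the 16-library fit), and of the 9 members Hhex was the only other one called. The 2 h call is lost without sham replicate 2 (adjusted p = 0.0591) and without 2 h replicate 1 (adjusted p = 0.0689). In the 16 complete libraries the 2 h change is -0.69 (adjusted p = 0.152) and the 24 h change is -0.78 (adjusted p = 0.0828), and neither is called. At 72 h the change was -0.31 ± 0.16 (adjusted p = 0.216), with the 2 libraries apart.

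Cebpb, which is induced by cytokines and hormones, moved the other way. Its CPM were 51.0 and 64.8 in sham, 102 and 106 at 0.5 h, 89.4 and 117 at 2 h, and 136 and 118 at 4 h. They were 45.7 and 63.1 at 24 h, 63.0 and 62.8 at 48 h, 35.6 and 41.6 at 72 h, 55.4 and 59.0 at 120 h, and 44.3 and 48.2 at 168 h. All 6 libraries from 0.5 to 4 h lay above both sham libraries, and the 24 h libraries overlapped them. At 0.5 h the log2 fold change of 0.84 ± 0.17 was not called (adjusted p = 0.104), although it was as large as the 0.83 ± 0.17 that was called at 2 h (adjusted p = 0.00866). At 4 h Cebpb was 2.19-fold higher than in sham, 1.13 ± 0.17 log2 (adjusted p = 0.000243). It then fell by 1.22 ± 0.17 log2 to 24 h (adjusted p = 0.000145) and again by 0.70 ± 0.17 to 72 h from 48 h (adjusted p = 0.0424), a step at which 3.67% of genes, and 0.656% in the 16-library fit, were called. At 72 h it was below sham, -0.58 ± 0.17 (adjusted p = 0.0431), a call lost in 14 of 26 alternative settings, among them without sham replicate 2, where it is -0.40 (adjusted p = 0.272). The step to 72 h is lost in 10 of 26, among them without any 1 of its 4 libraries (adjusted p from 0.0791 to 0.282). Without sham replicate 1 the 2 h change is 0.67 (adjusted p = 0.116), and without 2 h replicate 2 it is 0.63 (adjusted p = 0.0938).

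Cebpd (chr16:15887286-15889545, plus strand), the other acute phase C/EBP factor, rose more steeply from a lower level. Its CPM were 5.38 and 6.64 in sham, 14.8 in the single 0.5 h library that lists it, 26.3 and 39.6 at 2 h, and 40.9 and 32.7 at 4 h. They were 7.15 and 14.1 at 24 h, 7.57 and 12.1 at 48 h, 3.45 and 5.76 at 72 h, 5.27 and 11.2 at 120 h, and 5.48 and 5.76 at 168 h. The 4 libraries at 2 and 4 h were higher than every other library. Against the 1 complete sham library, Cebpd was 6.40-fold higher at 2 h, 2.68 ± 0.54 log2 (adjusted p = 0.0184), and 6.70-fold higher at 4 h, 2.74 ± 0.54 log2 (adjusted p = 0.00441). It fell by 1.78 ± 0.38 log2 to 24 h from 4 h (adjusted p = 0.00501), where 22.4% of the genes of the 16-library fit were called. The 2 h call is lost without 2 h replicate 2 (adjusted p = 0.102). Whether counting used strand is not known, and 312 exon bases of Cebpb are shared with Tmem189 and 562 of Cebpd with Spidr, both on the opposite strand.

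Within a library, the RPKM ratio of Cebpa to Cebpb crossed 1. It was 2.26 and 1.93 in sham, 1.39 and 1.29 at 0.5 h, 0.714 and 0.631 at 2 h, 0.464 and 0.637 at 4 h, and 1.49 and 1.08 at 24 h. It was 1.08 and 1.11 at 48 h, 3.19 and 1.92 at 72 h, 2.17 and 1.62 at 120 h, and 3.20 and 2.62 at 168 h. The 4 libraries of 2 and 4 h were the only ones under 1. The log2 ratio at 4 h was 1.94 lower than in sham, as a difference of -1.94, and at 2 h the difference was -1.64. With 2 libraries against 2 the exact permutation test, two-sided, cannot go below p = 0.33, which both reached. Over all 16 hepatectomy libraries against the 2 sham libraries the difference in the log2 ratio was -0.66 (exact permutation test, two-sided, p = 0.301).

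**Figure D3:**
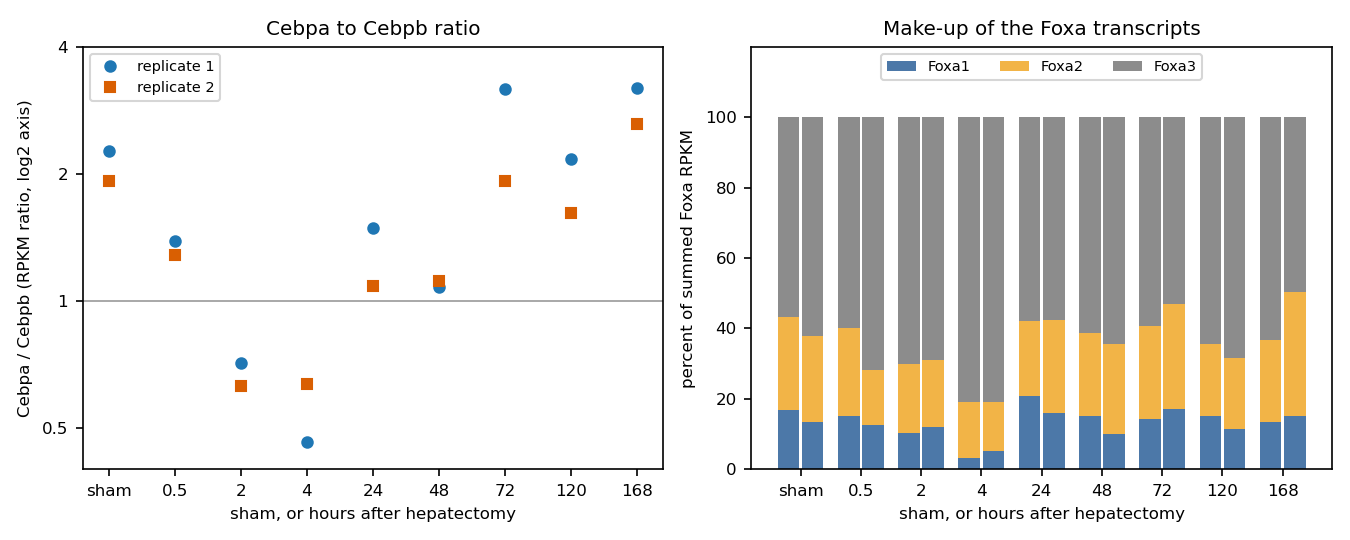
Left, RPKM ratio of Cebpa to Cebpb in each library (log2 axis), with a line at 1; right, percent of the summed Foxa RPKM that Foxa1, Foxa2 and Foxa3 make up, one bar per library with replicate 1 at the left of each pair. The ratio lies under 1 at 2 and 4 h only, and Foxa1 makes up 3.29% and 5.03% of the Foxa sum at 4 h.

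The 3 FOXA genes parted at 4 h. The CPM of Foxa1 (chr12:57540628-57548029, minus strand), a pioneer factor, were 19.9 and 17.8 in sham, 20.2 and 14.5 at 0.5 h, 9.33 and 12.3 at 2 h, 3.88 and 6.61 at 4 h, and 29.2 and 19.4 at 24 h. From 48 to 168 h its 8 libraries ran from 14.0 to 22.6 CPM. Both 4 h libraries were lower than every other library, and both 2 h libraries lay below both sham libraries. Foxa1 was 3.58-fold lower at 4 h than in sham, -1.84 ± 0.32 log2 (adjusted p = 0.000714), on 24 and 41 reads against 159 and 142 reads. The 2 h change of -0.79 ± 0.28 was not called by edgeR (adjusted p = 0.111) and was called by DESeq2 (adjusted p = 0.0468). The step to 24 h from 4 h was 2.21 ± 0.32 log2 (adjusted p = 0.000161), and no later time was called against sham.

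Foxa2 (chr2:148042877-148046969, minus strand), which shares the FOXA DNA-binding domain, had 20.9 and 21.7 CPM in sham, 22.3 and 12.1 at 0.5 h, 12.1 and 13.0 at 2 h, 12.5 and 12.4 at 4 h, and 20.1 and 21.3 at 24 h. From 48 to 168 h its libraries ran from 14.8 to 27.2 CPM. The 4 libraries at 2 and 4 h lay well below both sham libraries, but 0.5 h replicate 2 was as low. At 4 h the change was -0.77 ± 0.26 (adjusted p = 0.032), and it loses the call without any 1 of the 4 libraries compared (adjusted p from 0.0909 to 0.114, log2 fold change from -0.80 to -0.75). At 2 h the change was of like size, -0.76 ± 0.25, and was not called by edgeR (adjusted p = 0.0874), though DESeq2 called it (adjusted p = 0.0322). Foxa2 rose by 0.73 ± 0.26 to 24 h from 4 h (adjusted p = 0.0403), a call lost without either library of 4, 24 or 48 h or of sham (adjusted p from 0.0507 to 0.143).

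Foxa3 (chr7:19013283-19023539, minus strand), the most abundant FOXA gene per length in this liver, had 42.8 and 52.6 CPM in sham, 41.3 and 45.3 at 2 h, 61.2 and 67.9 at 4 h, and 52.0 and 44.9 at 24 h. In the other groups it ran from 36.8 to 57.1 CPM. The 4 h libraries were the highest 2 of the 18. The rise at 4 h, 0.44 ± 0.16 (adjusted p = 0.0498), sat on the threshold: it is 0.06 on read totals alone (adjusted p = 0.759) and the call was lost in 15 of 26 settings. The step to 4 h from 2 h was 0.57 ± 0.16 (adjusted p = 0.0327), where 14.7% of genes, and 6.7% in the 16-library fit, were called, and 0.36 on read totals alone (adjusted p = 0.116). Without sham replicate 1 the 4 h rise is 0.29 (adjusted p = 0.303), and the step is lost without any 1 of its 4 libraries (adjusted p from 0.0774 to 0.133). As shares of the summed FOXA RPKM, Foxa1 made up 3.29% and 5.03% at 4 h, against 16.8% and 13.4% in sham. Foxa2 made up 15.8% and 14.2% at 4 h, against 26.5% and 24.5% in sham, and Foxa3 80.9% and 80.8%, against 56.6% and 62.1%. These shares do not depend on the scaling, and no group but 4 h had Foxa1 under 10% in any library.

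Hhex, a homeodomain factor of the early liver bud, showed the deepest change. Its CPM were 116 and 78.4 in sham, 118 and 77.8 at 0.5 h, 6.13 and 4.11 at 2 h, 61.2 and 24.2 at 4 h, and 89.6 and 90.2 at 24 h. They were 54.1 and 83.5 at 48 h, 96.4 and 107 at 72 h, 93.9 and 75.8 at 120 h, and 81.7 and 93.1 at 168 h. The 2 h libraries held 44 and 32 reads of Hhex, against 930 and 626 reads in sham, and were lower than every other library. At 2 h Hhex was 19.1-fold lower than in sham, -4.25 ± 0.43 log2 (adjusted p = 8.56e-05), and as much lower than at 0.5 h, -4.26 ± 0.43 (adjusted p = 9.61e-05). It rose by 3.06 ± 0.43 log2 to 4 h from 2 h (adjusted p = 0.000805). At 4 h it was still below sham, -1.19 ± 0.35 (adjusted p = 0.0179), although its 4 h libraries stood far apart. That call rests on single libraries: the change is -0.66 without 4 h replicate 2 (adjusted p = 0.144) and -0.88 without sham replicate 1 (adjusted p = 0.145). The step to 24 h from 4 h was 1.07 ± 0.35 (adjusted p = 0.0295), and 0.53 without 4 h replicate 2 (adjusted p = 0.247), and it is also lost without either 24 h library (adjusted p = 0.0648 and 0.0815). Hhex is also made by endothelial cells, whose 8 sinusoidal markers summed to 331 to 389 CPM at 2 h and 323 CPM in the complete sham library. At 2 h, 1 of those 8 markers was called higher and none lower.

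Prox1 (chr1:190118035-190170827, minus strand), the homeodomain factor of hepatoblasts and of lymphatic vessels, had 51.6 and 35.5 CPM in sham, 26.5 and 40.2 at 0.5 h, 23.1 and 37.4 at 2 h, 45.5 and 52.4 at 4 h, and 56.0 and 38.6 at 24 h. It had 34.6 and 36.1 CPM at 48 h, 41.7 and 31.4 at 72 h, 34.8 and 35.5 at 120 h, and 28.1 and 24.0 at 168 h. Libraries of 1 group stood far apart in sham and at 2 h. In CPM, both libraries of a time lay below both sham libraries only at 120 and 168 h. At 120 h the gap was slight, 35.45 CPM against 35.46 CPM in sham replicate 2. In RPKM both 120 h libraries (8.56 each) lay above sham replicate 2 (8.52). The lowest single library was at 2 h. The largest change, -0.74 ± 0.27 at 168 h, was not called (adjusted p = 0.0962). Of the lymphatic markers, Pdpn was at 0 in the complete sham library and between 0 and 1.60 CPM in the others, and Mmrn1 reached at most 1.13 CPM. Flt4, which sinusoidal endothelium also makes, ran from 33.9 to 57.8 CPM.

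Textbook targets of these factors were read beside them. The lists were drawn up with results of these data known, and each is given by its calls and median only. For lists, genes outside the 18-library fit were taken from the 16-library fit, and over the 12199 genes so tested the median change lay between -0.04 and 0.05 log2 at each time. By that rule 2.64% of genes were higher and 2.17% lower at 2 h, 10.7% and 10.8% at 4 h, 3.91% and 4.21% at 24 h, 12.1% and 10.3% at 48 h, 4.39% and 2.9% at 72 h. The shares were 0.082% higher and 0.0164% lower at 0.5 h, 0.172% and 0.197% at 120 h, and 0.984% and 1.37% at 168 h. Genes of the 18-library fit, which are the more abundant, were called more often. Its share is also given for the HNF4A targets at 24 and 48 h and for the acute phase genes at 4 h. For the FOXA targets it is given from 2 to 48 h.

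The HNF4A target list, 19 genes of lipoproteins, clotting, bile acid and urea metabolism, lay wholly in the 18-library fit. It was largely lower at 24 and 48 h, when Hnf4a itself was not called against sham. At the step to 24 h from 4 h edgeR called Hnf4a lower (-0.44, adjusted p = 0.0262), though not on read totals alone. At that step 11 of the 19 were lower and none higher, where 34.5% of the 4906 genes were called in either direction. None of the 19 was higher and 14 were lower at 24 h, with a median of -0.55, where 9.46% of the 4906 genes were lower. At 48 h none was higher and 11 were lower, with a median of -0.57, where 18.9% were lower. At 4 h, 1 was higher and 4 lower (median -0.02), and at 72 h 4 were lower and none higher (median -0.47). None was called at 0.5 h or 120 h, 1 was lower at 2 h, and 1 was higher and 2 lower at 168 h.

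By smallest adjusted p at 24 h the first of them was Pklr, liver pyruvate kinase, at 53.7 and 53.8 CPM, against 197 and 142 CPM in sham (-1.66 ± 0.23, adjusted p = 0.000645). Cyp27a1, a sterol hydroxylase of bile acid synthesis, had 187 and 221 CPM at 24 h, against 450 and 533 CPM in sham (-1.27 ± 0.20, adjusted p = 0.00119). Otc, a urea cycle enzyme, had 233 and 168 CPM, against 436 and 424 CPM in sham (-1.10 ± 0.19, adjusted p = 0.00225). Both libraries of all 3 genes lay below both sham libraries. Ugt2b1, a glucuronosyltransferase, was lower by more, -2.09 ± 0.36 (adjusted p = 0.00228). The same 4 genes had the smallest adjusted p at 48 h, with log2 fold changes of -1.48 for Pklr, -1.40 for Cyp27a1, -1.21 for Otc and -2.12 for Ugt2b1. The summed level of 10 hepatocyte markers was 109445 to 110319 CPM at 24 h, against 141126 CPM in the complete sham library. Alb was the largest part of that sum, with 60535 and 49218 CPM at 24 h, against 90272 CPM in that sham library. Hpx, Cps1 and Asgr1 were higher in both 24 h libraries than in that sham library, and the sum without Alb was not tested. Of these 10, 4 were called lower at 24 h and none higher. At 48 h the sum was 139943 to 147156 CPM, around the sham value, with 2 called lower and none higher. The part of these markers in the target list was not tested. The marker list shares Apoa1, Apob, Ttr and transferrin with the target list.

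**Figure D4:**
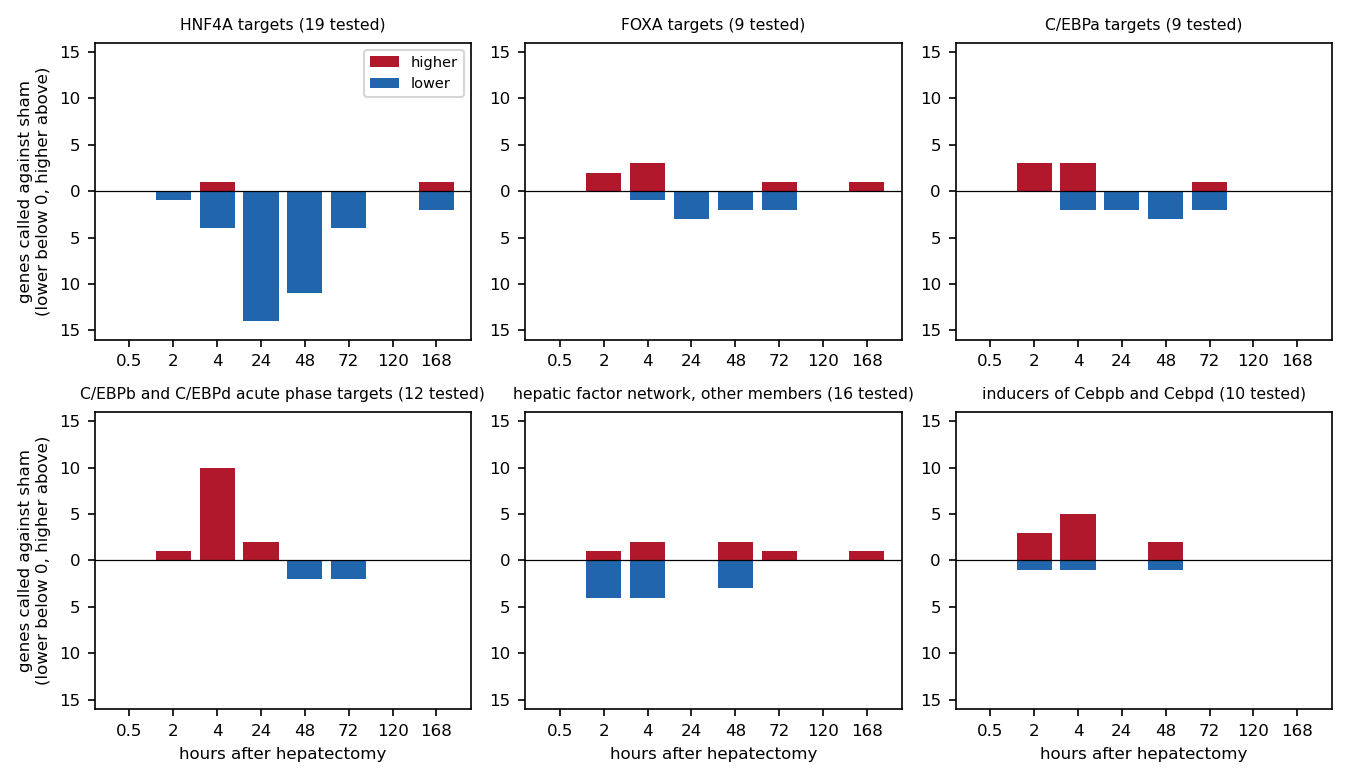
Genes of 6 lists called higher (red, above 0) or lower (blue, below 0) than in sham at each time after hepatectomy, with the number tested in each title. HNF4A targets are lower at 24 h (14 of 19) and 48 h (11 of 19), and acute phase targets of C/EBPβ and C/EBPδ are higher at 4 h (10 of 12).

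Acute phase genes driven by C/EBPβ and C/EBPδ were mostly higher at 4 h and mostly not called at 2 h, both times at which Cebpb and Cebpd were higher. Of 12 genes, 10 were higher and none lower at 4 h, with a median of 2.15, where 16.9% of the 4906 genes were higher. At 2 h, 1 was higher and none lower, with a median of 0.68. For some of these genes the sham libraries stood far apart (83.4 and 651 CPM for Lcn2), and for others close (545 and 488 CPM for Crp). At 24 h, 2 of the 12 were higher (median 1.11), and at 48 and 72 h none was higher and 2 were lower at each. Apcs, serum amyloid P, had 3377 and 2959 CPM at 4 h, against 176 and 365 CPM in sham (3.55 ± 0.55, adjusted p = 0.000256). Hamp, the iron hormone hepcidin, was higher by 2.16 ± 0.38 (adjusted p = 0.000648), and Orm1, orosomucoid, by 2.14 ± 0.38 (adjusted p = 0.000776). Crp, C-reactive protein, had 1208 and 1022 CPM at 4 h, against 545 and 488 CPM in sham (1.11 ± 0.20, adjusted p = 0.000885). By 48 h Crp was lower than in sham, -1.01 ± 0.20 (adjusted p = 0.0024).

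Targets of FOXA and of C/EBPα were mixed. Of 9 FOXA targets, 2 were higher and none lower at 2 h, and 3 higher and 1 lower at 4 h. None was higher and 3 were lower at 24 h, and none was higher and 2 were lower at 48 h. In the 18-library fit, which held all 9, 8.76% of genes were called at 2 h and 16.9% were higher at 4 h. At 24 and 48 h, 9.46% and 18.9% of the genes of that fit were lower. Tat, the tyrosine aminotransferase of amino acid breakdown, had 6468 and 5945 CPM at 4 h, against 1905 and 2450.2 CPM in sham (1.51 ± 0.19, adjusted p = 5.37e-05). Igfbp1, an insulin-like growth factor binding protein, was higher by 2.86 ± 0.44 at 4 h (adjusted p = 0.000277), while G6pc, glucose-6-phosphatase, was lower, -1.07 ± 0.30 (adjusted p = 0.0141). The median of the list was 0.25 at 2 h and 0.27 at 4 h, the times at which Foxa1 and Foxa2 had their lowest means, and -0.33 at 24 h. Of 9 C/EBPα targets, 3 were higher and none lower at 2 h, 3 higher and 2 lower at 4 h, none higher and 2 lower at 24 h, and none higher and 3 lower at 48 h. The median change of this list was 0.42 at 2 h and 0.04 at 4 h, then -0.22 at 24 h and -0.29 at 48 h. Alb, Cps1, G6pc, Pck1 and Tat stand in both lists, and all but 1 of the C/EBPα targets were in the 18-library fit. Ppargc1a, a coactivator of gluconeogenic genes, was higher by 1.88 ± 0.38 at 4 h in the 16-library fit, which has 1 sham library. Pck1, the gluconeogenic enzyme, was lower at 48 h, -0.93 ± 0.21 (adjusted p = 0.00459).

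Receptors and mediators of signals that induce Cebpb and Cebpd were listed together with genes that such signals induce, among them Fkbp5 and Tsc22d3. Of the 10 genes of this mixed list, 3 were higher and 1 lower at 2 h. At 4 h, 5 were higher and 1 lower, with a median of 1.08. Il1r1, the interleukin-1 receptor, had 473 and 582 CPM at 4 h, against 69.9 and 81.8 CPM in sham (2.80 ± 0.37, adjusted p = 7.9e-05). Stat3, the effector of interleukin-6, was higher by 1.30 ± 0.21 (adjusted p = 0.000331), and Fkbp5, a glucocorticoid-induced cochaperone, by 1.80 ± 0.37 (adjusted p = 0.00196). Tsc22d3, another glucocorticoid-induced gene, went the other way, -1.29 ± 0.23 (adjusted p = 0.00089). At 0.5 h none of the 10 was called, and at 48 h 2 were higher and 1 lower. Cebpb and Cebpd are also made by white blood cells. Of 6 neutrophil markers, none was called at 2 h and Cxcr2 alone at 4 h. All 6 were tested in the 16-library fit, which has 1 sham library. They summed to 36.2 to 54.6 CPM at 2 h and 55.0 to 123 CPM at 4 h, against 10.1 CPM in the complete sham library. Mpo was at 0 in both 2 h libraries, and Ngp was at 0 in the complete sham library. Macrophage markers, 8 in number, summed to 391 to 442 CPM at 2 h and 589 to 725 CPM at 4 h, against 480 CPM in sham, with none called at 2 h and 1 higher at 4 h. The part of both lists in the rise of Cebpb and Cebpd was not tested.

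Among 16 other factors of the hepatic network, 1 was higher and 4 lower at 2 h, 2 higher and 4 lower at 4 h, none was called at 24 h, and 2 were higher and 3 lower at 48 h. Gata6, a zinc finger factor of the early liver, had 26.0 and 29.0 CPM at 2 h, against 8.63 and 10.2 CPM in sham. Its change of 1.73 ± 0.29 is from the 16-library fit, which leaves out sham replicate 2. Tbx3, a T-box factor of hepatoblasts, was lower at 2 h by that same fit, -1.46 ± 0.34. Nr0b2, the repressor SHP, was lower in the 18-library fit, -2.39 ± 0.64 (adjusted p = 0.0325). At 4 h Nfia was higher, 0.74 ± 0.13 (adjusted p = 0.000878), as was Gata6, 1.35 ± 0.29 in the 16-library fit. Rxra, the partner of many liver nuclear receptors, was lower, -0.41 ± 0.13 (adjusted p = 0.0275).

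Of 4 further genes named for or related to C/EBP factors, 2 were higher at 4 h and 2 were lower at 48 h. These were Cebpg, a dimer partner of other C/EBP proteins (0.53 ± 0.18 at 4 h, adjusted p = 0.0316), and Cebpz, listed by its symbol alone (0.65 ± 0.22 at 4 h, adjusted p = 0.0334). At 48 h Cebpg stood at -0.78 ± 0.18 (adjusted p = 0.00542) and Cebpz at -0.61 ± 0.22 (adjusted p = 0.0472). Of 5 partners and targets of PROX1, none was higher and 3 were lower at 4 h, with a median of -0.99, although Prox1 was not called. Cyp7a1, which sets the rate of bile acid synthesis, had 5.50 and 5.97 CPM at 4 h, against 146 and 84.8 CPM in sham (-4.33 ± 0.81, adjusted p = 0.00109). Esrra, a nuclear receptor of energy metabolism, was lower by less, -0.99 ± 0.29 in the 16-library fit, which has 1 sham library. Nr0b2 was the third, -1.69 ± 0.62 (adjusted p = 0.0475). The 4 h libraries of Nr0b2 stood far apart, at 23.5 and 1.94 CPM, against 38.6 and 43.2 CPM in sham. Nr0b2 is also counted among the factors of the hepatic network that were lower at 4 h.

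Across the 16 complete libraries the factors can be set beside each other and beside 7015 genes with a mean of at least 10 CPM, as Pearson correlations of log2 CPM. The libraries of a group and the scaling are shared by both sides of each value, so these are descriptions. Cebpb and Cebpd ran together (r = 0.941), and Hnf4a ran with Cebpd (0.911) and Cebpb (0.852). Hnf4a ran against Hhex (-0.810), Foxa2 (-0.719) and Foxa1 (-0.714), and Cebpb against Foxa2 (-0.817) and Foxa1 (-0.765). Cebpa had no r beyond 0.534 in size with another member. The gene most like Cebpb was Tat (0.943), followed by Cebpd and Rasgef1b (0.939). Most like Cebpd and Hnf4a was Wbp1l, at 0.959 and 0.972, and most like Foxa1 was Kif13b (0.970), then Tbcel (0.953) and Slc35b4 (0.936). The next genes after Wbp1l were Tnfrsf1b and Inhbb for Cebpd, and Lurap1l and Cdip1 for Hnf4a. For Hhex the closest were Trmt1l (0.879), Tob1 (0.878) and Itsn1 (0.863), and for Cebpa Wdr81 (0.898), Tprkb (0.889) and Ppard (0.883). For Foxa2, Foxa3 and Prox1 the closest genes reached 0.879 (Dck), 0.835 (Per1) and 0.837 (Ints6).

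Steps between later times held few calls among the members. Between 24 and 48 h no member was called by edgeR, where 14.5% of genes, and 6.57% in the 16-library fit, were called. None was called between 72 and 120 h, where 1.16% and 1.11% were. Between 120 and 168 h edgeR called 0% of genes in either fit. In those 3 steps, at an unadjusted p below 0.05, Cebpb passed between 72 and 120 h (log2 fold change 0.57) and Foxa2 between 120 and 168 h (0.52), and DESeq2 called Cebpb between 72 and 120 h (adjusted p = 0.0337). The step of Cebpa to 72 h from 48 h, 0.49 ± 0.16, was not called by edgeR (adjusted p = 0.107) and was called by DESeq2 (adjusted p = 0.0368), with 200 and 141 CPM at 72 h, against 120 and 123 CPM at 48 h. Without 72 h replicate 2 edgeR gives 0.73 (adjusted p = 0.0295).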

How the data were processed

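Liver poly(A) RNA libraries, 18 in number, were grouped by their labels into sham and 8 times, 2 per group. Per the file headers, the deposited count gives each gene's uniquely mapped reads, and the deposited RPKM value divides it by gene length and library total; RPKM recomputed from the counts agreed. The submitters' processing notes name mm10 as the build. Aligner, counter and strand setting: not given in the sources used here. All 18 libraries gave counts for 4906 genes, those that both short tables list, and the 16 complete ones for 12199 genes. Each set was tested with edgeR 4.0.16 under R 4.3.3 (glmQLFit and glmQLFTest, TMM factors from 0.765 to 1.16, 1 fit of all groups, Benjamini-Hochberg within each contrast). Genes had to reach 15 reads over all libraries and, in 2 or more of them, the CPM that 10 reads make in a library of median size. Residual degrees of freedom were 9 and 7, and biological coefficients of variation 0.139 and 0.166. The SE is the absolute log2 fold change over the root of F. The script was tested on simulated data. Gene lists held 136 entries, of which 2 had no match. From each list at most 4 genes per comparison were named, smallest adjusted p first, with markers and library values quoted beyond that chosen after their values were seen. Similar genes were the 3 with the highest r. The members, lists and tests were chosen with earlier results of these data known. Alternatives were DESeq2 1.42.0, limma-trend (limma 3.58.1), other scalings, no filter, only the 2 groups compared, a replicate block and leaving out each library. Python 3.11.15 and pandas 2.3.3 read the tables. Windows of RefSeq sequence matched 8 of the 9 genes. 1 gene of the lists is counted but not reported here by name.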

Additional observations from a re-analysis of the deposited data

Results flagged for a closer look

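Cebpb stood on both sides of sham in the same course: its log2 fold change was 1.13 at 4 h and -0.58 at 72 h, both called by edgeR's quasi-likelihood test. It was flagged because the effect of the operation differs between times for the same gene. The fall between 4 and 24 h was tested directly (-1.22, adjusted p = 0.000145), as was that between 48 and 72 h (-0.70, adjusted p = 0.0424). The call at 72 h was lost in 14 of 26 settings, and that of the step from 48 to 72 h in 10 of 26. Both 4 h libraries lay above and both 72 h libraries below both sham libraries. Groups of 2 libraries are too small to look for a single outlying library.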

How the results depend on the processing

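Results were rerun under up to 26 settings, 18 of which leave out a library; Cebpd could be fitted in 22 or 23 of them, and tests over all groups in 25 at most. The 32 called results kept their call in 727 of 811 reruns and lost it in 83, and 38 of 2865 reruns of results not called gained one. Always called were Hhex at 2 h, Cebpa at 4 and 48 h, and Cebpb, Cebpd and Foxa1 at 4 h. Among steps these were Hhex and Cebpa to 2 h, Hhex to 4 h, and Foxa1, Cebpb and Cebpd to 24 h. The count of members called at 0.5 h was 1 with DESeq2 and 1 with a replicate block. In the fit of the 16 complete libraries it was 0 at 24 h and 0 at 72 h, and on read totals alone 0 at 72 h. At 168 h it was 1 with DESeq2 and 1 with only the 2 groups. Leaving out a library gave 0 to 1 members at 0.5 h, 2 to 5 at 2 h, 3 to 7 at 4 h and 0 to 1 at 72 h; the lowest at 2 h came without 2 h replicate 2 and at 4 h without sham replicate 1, where Cebpd could not be tested. On read totals alone, Hnf4a to 24 h from 4 h turned to 0.053 and Cebpa to 0.47 (adjusted p = 0.0187). The median of the 4906 genes moved by 0.48 log2 between those times on that scale. In these and the other reruns the cause was not tested. The replicate numbers were not treated as pairs in the main fits. Differences between replicates correlated from -0.55 to 0.53 over 36 pairs of groups, with a median of 0.04, and 14 pairs exceeded 0.1. Pairing among only some of the groups was not tested. The replicate block moved the member count at 0.5 h to 1 and lost Foxa3 at 4 h (adjusted p = 0.0541). Depth limits the lowest levels, which rest on 24 reads for Foxa1 and 32 each for Hhex and Cebpd in a library.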
